A study of Mus musculus with 4 samples.

Results

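The genes described here are 10 classical metastasis suppressors and tetraspanins, which were taken by name. Nme1, Nme2, Brms1, Kiss1, Pebp1, Map2k4 and Cd82 are the suppressors, and Cd9, Cd63, Cd151 and again Cd82 are the tetraspanins. A probe was assigned to a gene by its current or its older symbol, since the array lists Cd82 as Kai1 and Pebp1 as Pbp. This gave 13 of the 33012 probes and 10 of the 15619 genes with a symbol. Nme1, Nme2 and Pebp1 had 2 probes each, and the other 7 genes had 1.

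Metastasis suppressors are genes whose product lowers the spread of a tumour to distant sites while leaving the growth of the primary tumour largely untouched, and several of them were found by comparing melanoma lines of low and high metastatic capacity. They act at different places of the cell: nucleoside diphosphate kinases and a transcriptional co-repressor subunit inside it, inhibitors and activators of MAP kinase cascades at its signalling level, and a secreted peptide outside it. Tetraspanins are small proteins that cross the membrane several times, gather integrins and other receptors into membrane patches and thereby influence adhesion, motility and the release of vesicles.

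The study compared the parental mouse melanoma line B16 (B16F1, from the C57Bl6 strain) with lines recovered from its metastases. B16-RI was recovered from metastatic lymph nodes of C57BL6 mice that had been injected intradermally in 1 round, and B16-RII and B16-RIIL came from the lymph nodes and the lungs after B16-RI had been injected in a second round. All 4 lines were grown as cultures in DMEM with 20% fetal bovine serum for at most 10 passages, without a further treatment, and their total RNA was hybridised to Applied Biosystems Mouse Genome Survey Microarrays, which report 1 chemiluminescence signal per probe. The labels speak of duplicate cultures and of RNA pooled from 2 passage numbers, but describe 1 array per line, and they do not give the number of mice behind a line. With the 1 array per line that was used, the differences below have no replicate check and no p-value, and the 3 comparisons with B16 share the same B16 array.

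Between 13872 and 14855 probes were detected per array. A probe counted as detected when its signal-to-noise ratio reached 3 and its flag did not exceed 5000. A level is the raw signal divided by the median signal of its probe set over the probes detected on all 4 arrays, so a level of 1 is that median. Levels of different genes come from different probes and are not compared here. A gene passed the size limit when it differed at least 2-fold and was detected on the brighter array. Where a probe was undetected on the dimmer array, the fold is a lower bound, taken against the higher of the probe's own level and the lowest level of any detected probe there, and it is written as at least. As a yardstick of probe noise, which leaves out the variation between cultures and arrays, 2 probes for the same gene gave log2 differences from B16 that were apart by a median of 0.24, 0.29 and 0.31 in B16-RI, B16-RII and B16-RIIL, and 95% of such pairs were within 1.04, 1.19 and 1.00.

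All 6 measured melanocyte markers (Tyr, Tyrp1, Dct, Pmel, Mitf and Slc45a2) were detected on every array, with summed levels from 363 to 418. Of the lymphocyte markers 3 to 4 of 8 were detected per array (summed level 4.32 to 4.96), among them Cd79a, Cd2 and Lck on every array, while the defining leukocyte gene Ptprc was detected on none. Of the macrophage markers 1 to 2 of 7 were detected (0.407 to 0.608), of the fibroblast markers 1 to 3 of 6 (0.577 to 1.07), of the endothelial markers 0 to 1 of 7 (0.238 to 0.328) and of the lung epithelium markers 0 to 1 of 4 (0.146 to 0.271). These sums include probes below detection and serve only to set the lines side by side within a list. The part of such cells in the differences below was not tested.

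Promoter sequences are shown for 3 of the tetraspanins, because Cd9 and Cd82 were the only genes of the set to pass the 2-fold limit by their representative probe and Cd63 is the relative whose signal moved little. Each is the 250 bases before the RefSeq start on the strand of the gene (build GRCm38.p6), and capitals mark matches on either strand to the GC box (GGGCGG), the canonical E-box (CACGTG), the core of the M-box bound by Mitf (CATGTG, which is CACATG on the other strand), the AP-1 site (TGACTCA), the cyclic AMP response element (TGACGTCA) and the TATA box (TATAAA), none of which overlapped another here. The Cd9 window is chr6:125494761-125495010 on the minus strand. The Cd82 window is chr2:93462951-93463200 on the minus strand, before the most upstream of 4 listed starts. The Cd63 window is chr10:128909095-128909344 on the plus strand.
Cd9: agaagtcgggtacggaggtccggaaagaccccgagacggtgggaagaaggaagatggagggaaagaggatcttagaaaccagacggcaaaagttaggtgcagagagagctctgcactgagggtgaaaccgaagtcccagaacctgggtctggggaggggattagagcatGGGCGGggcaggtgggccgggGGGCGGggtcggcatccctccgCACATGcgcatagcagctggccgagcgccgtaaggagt
Cd82: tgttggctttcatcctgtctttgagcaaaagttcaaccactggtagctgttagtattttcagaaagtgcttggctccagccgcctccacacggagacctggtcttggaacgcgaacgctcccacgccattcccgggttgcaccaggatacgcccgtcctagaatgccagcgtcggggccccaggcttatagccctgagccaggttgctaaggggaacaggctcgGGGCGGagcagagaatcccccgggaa
Cd63: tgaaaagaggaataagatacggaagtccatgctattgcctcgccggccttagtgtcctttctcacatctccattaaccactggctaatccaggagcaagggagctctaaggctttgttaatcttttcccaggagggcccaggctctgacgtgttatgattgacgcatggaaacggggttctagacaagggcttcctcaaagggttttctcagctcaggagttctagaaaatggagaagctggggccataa
The Cd9 window held 2 GC boxes and 1 CACATG, with 16 CpG and a GC content of 61.6%. The Cd82 window held 1 GC box, with 14 CpG and 58.4% GC. None of these letters occurred in the Cd63 window, which had 6 CpG and 48.8% GC. Among 32851 RefSeq windows of the same length, 32.7% held GGGCGG, 12.3% CATGTG, 6.02% CACGTG, 12.4% TATAAA, 4.46% TGACTCA and 1.55% TGACGTCA, and the medians were 6 CpG and 52.4% GC. The matches describe the sequence and say nothing about binding in these cells.

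In the comparison with B16, 1 of the 10 genes passed the 2-fold limit in each passaged line and each time it was below B16: Cd82 in B16-RI, Cd82 in B16-RII and Cd9 in B16-RIIL. Over all genes detected on at least 1 of the arrays compared, 14.6% passed in B16-RI (6.1% above and 8.55% below B16), 14.1% in B16-RII (5.78% above and 8.28% below) and 14.4% in B16-RIIL (6.91% above and 7.47% below). Counted in the same way, without the undetected Kiss1, 1 of 9 genes of the set passed in each line, a share close to that of all genes. Of the 10 genes, 8 were detected on all 4 arrays, Cd82 was detected on B16 and B16-RIIL and Kiss1 was detected on none.

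**Figure D1:**
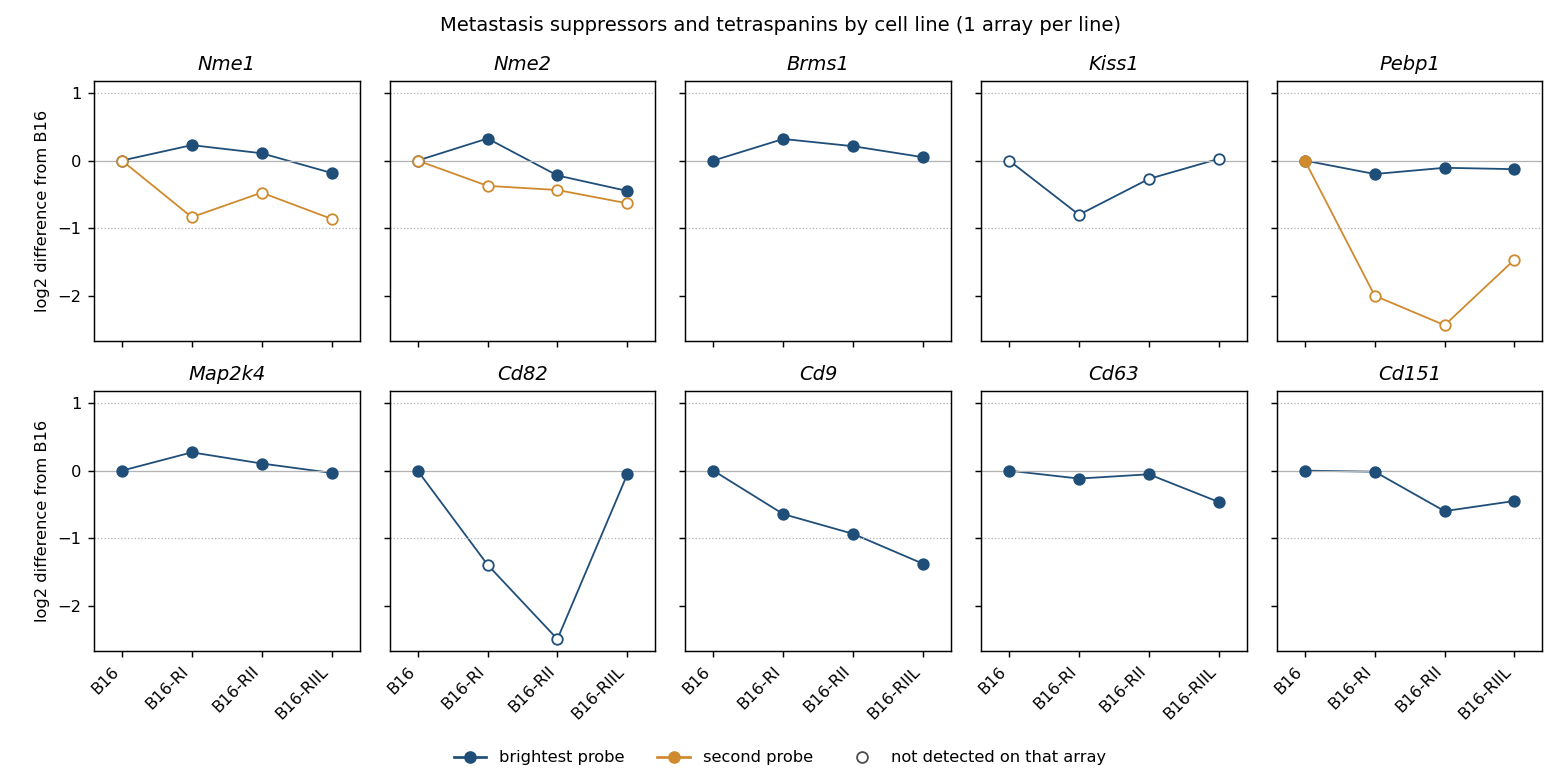
Log2 difference of each probe from its own value on the B16 array (vertical axis) in the 4 lines (horizontal axis), with 1 array per line. Blue is the brightest probe of the gene, orange its second probe, open circles are values below detection and dotted lines mark a 2-fold difference. Cd82 was low in the B16-RI and B16-RII lines, where it was not detected, the measured value of Cd9 was lowest in B16-RIIL, 2.59-fold below B16, and the brightest probes of the other detected genes stayed within 2-fold.

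Cd82 (Kai1), a tetraspanin that restrains motility and was named as a metastasis suppressor of prostate cancer, differed most among the lines. Its level was 0.180 in B16, 0.0686 in B16-RI, 0.0320 in B16-RII and 0.173 in B16-RIIL. The signal-to-noise ratio of this single probe on chromosome 2 was 10.2 in B16 and 4.87 in B16-RIIL, and 1.81 and 2.43 in B16-RI and B16-RII, below the detection limit. Parental and lung-derived cells thus gave nearly the same level, and both lymph node lines lay below it without a measurable signal. In RNA from whole cultures, fewer cells with a transcript and less of it per cell cannot be told apart.
Against B16 the level was at least 2.62-fold lower in B16-RI and at least 5.61-fold lower in B16-RII, while the log2 difference of B16-RIIL was -0.05. The lung line was at least 2.52-fold above B16-RI and at least 5.40-fold above B16-RII. Of all genes, 14% passed the limit between B16-RIIL and B16-RI (7.97% above and 6.05% below) and 11.5% between B16-RIIL and B16-RII (6.58% above and 4.92% below). No order can be given between B16-RI and B16-RII, since the gene was detected in neither.

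The Cd82 probe was dim. Of 5 equal bins of mean signal it lay in bin 2, counted from the dimmest, where 13.1% of the genes were at least 2-fold below B16 in B16-RI and 10.1% in B16-RII. Across the array 47 genes, 0.453% of the 10365 detected on at least 1 array, shared its pattern, that is, detection in B16 and B16-RIIL only and at least 2-fold lower values in both lymph node lines than in either of these. Of the 47 genes 35 lay in the dimmest bin, 11 in bin 2 and 1 above it, with a median signal-to-noise ratio of 3.9 in B16. The signal-to-noise ratio in B16 reached that of Cd82 for Ddit4 (26.0) and Tmem241 (17.1) alone, which were named after their values were seen. Among the genes of the lists used here Cdh1, Epcam and Mapk11 had the same pattern, with signal-to-noise ratios of 3.67, 3.31 and 4.76 in B16, close to the limit.

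Cd9, a tetraspanin known as motility-related protein, was the gene of the set that lay farthest below B16 in the lung line by the brightest probe of each gene. Its level was 0.769 in B16, 0.493 in B16-RI, 0.403 in B16-RII and 0.297 in B16-RIIL. The probe on chromosome 6 was detected on every array, with signal-to-noise ratios of 27.2, 20.4, 8.69 and 14.6. Before centring its raw signal was 4391, 3672, 4887 and 3207, so B16-RII lay below B16 only once the brighter B16-RII array was scaled. The measured level was highest in B16 and lowest in B16-RIIL, and B16-RII and B16-RIIL are both descendants of B16-RI and not successive steps.
The difference from B16 was 1.56-fold in B16-RI, 1.91-fold in B16-RII and 2.59-fold in B16-RIIL, and only the last of these passed the limit. It did not pass with the deposited signal or with median scaling, at log2 differences of -0.85 and -0.80. Among genes detected on both arrays the 1.56-, 1.91- and 2.59-fold differences lay at percentiles 6.80, 3.28 and 0.865. In bin 3 of signal, which holds Cd9, 2.41% of the genes were at least 2-fold below B16 in B16-RIIL. Between neighbours in the order, B16-RII was at a log2 difference of -0.29 from B16-RI and B16-RIIL of -0.44 from B16-RII, both inside the range that held 95% of the probe pairs of 1 gene (1.02 and 1.00), so the order of these neighbours is not settled. The differences of B16-RI and B16-RII from B16, and that of B16-RIIL from B16-RI (-0.73), also lay inside the range for their comparison (1.04, 1.19 and 1.11).
Of the 7422 genes detected on all 4 arrays, 473 were lower at each step of this order, and 63 of them (0.849%) were also at least 2-fold lower in B16-RIIL than in B16, Cd9 included. The 3 genes with the profile most like that of Cd9, by the Euclidean distance between the 4 log2 values after subtraction of each gene's mean, among the 741 genes detected on all 4 arrays that spanned at least 2-fold, were Klhl1 (distance 0.0278), Myl2 (0.0908) and Pklr (0.136).

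**Figure D2:**
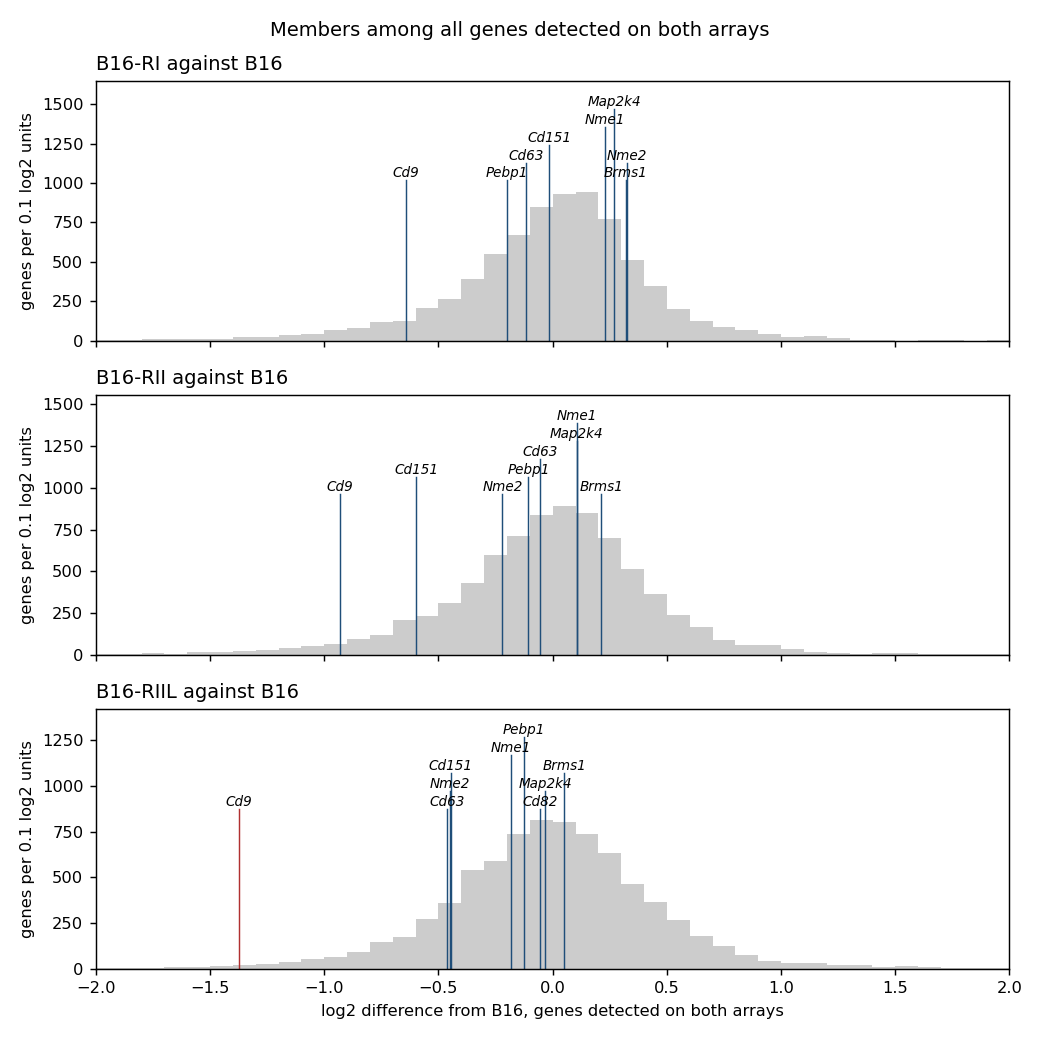
Number of genes per 0.1 log2 units (vertical axis) against the log2 difference from B16 (horizontal axis) for genes detected on both arrays, with the positions of the 10 genes that were detected on both drawn as lines, red where the 2-fold limit was passed. Cd9 lay at percentiles 6.80, 3.28 and 0.865 of these genes in B16-RI, B16-RII and B16-RIIL, at -1.37 in the last. Cd82 appears for B16-RIIL only, at -0.05, because it was undetected in both lymph node lines.

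Cd63, a tetraspanin of late endosomes, melanosomes and secreted vesicles, gave levels of 72.2 in B16, 66.6 in B16-RI, 69.6 in B16-RII and 52.4 in B16-RIIL. The lung line was the lowest of the 4, and the largest distance between any pair of lines was 1.38-fold. Cd151, which ties laminin-binding integrins into tetraspanin patches, gave levels of 0.237 in B16, 0.234 in B16-RI, 0.157 in B16-RII and 0.174 in B16-RIIL. Both second-round lines lay below the other two, by log2 differences from B16 of -0.60 and -0.45, which did not reach 2-fold. Its signal-to-noise ratio was 17.0 in B16 but 4.61 to 6.85 in the passaged lines.

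Among the suppressors, Nme1 and Nme2 encode the nucleoside diphosphate kinases A and B, and Nme1 (NM23) was the gene for which the term metastasis suppressor was coined, from melanoma lines of differing metastatic capacity. The level of Nme1 was 7.77 in B16, 9.10 in B16-RI, 8.37 in B16-RII and 6.84 in B16-RIIL. The level of Nme2 was 68.8 in B16, 86.2 in B16-RI, 59.0 in B16-RII and 50.4 in B16-RIIL. On this scale both were highest in B16-RI and lowest in B16-RIIL, within a range of 1.33-fold for Nme1 and 1.71-fold for Nme2.
The log2 difference of Nme2 between B16-RIIL and B16-RI was -0.77, at percentile 3.88 of all genes detected on both arrays, and its difference from B16 was 0.33 in B16-RI and -0.45 in B16-RIIL. The pair lies side by side on chromosome 11 with closely similar coding sequence, and how far each probe also binds the transcript of the other could not be examined without probe sequences. The second probes of both genes were undetected on all 4 arrays, so the profiles rest on 1 probe each. Of 892 genes with 2 probes and 1 of them detected on all 4 arrays, 22.3% likewise had the other detected on none. None of the 6 detected members of the Nme family (Nme1 to Nme4, Nme6 and Nme7) passed 2-fold in any line, with log2 differences from -0.45 for Nme2 to 0.53 for Nme6, and Nme5 was undetected.

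Brms1 is a subunit of the Sin3-histone deacetylase co-repressor. Its level was 1.27 in B16, 1.59 in B16-RI, 1.47 in B16-RII and 1.32 in B16-RIIL, a range of 1.25-fold with B16 the lowest. All 14 measured genes of the complex were detected on every array and none passed 2-fold, although Ing1 and Sap30 were at 1.22 and 1.03 in B16-RIIL on the deposited scale. Their log2 differences from B16 ran from -0.63 (Sap18 in B16-RIIL) to 0.70 (Ing1 in B16-RIIL), and their medians were 0.09, 0.18 and 0.13 in B16-RI, B16-RII and B16-RIIL beside 0.03, 0.01 and -0.01 for all genes.

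Pebp1, an inhibitor protein of MAP kinase signalling, stayed within 2-fold by its brighter probe. The level of its brighter probe was 47.0 in B16, 41.0 in B16-RI, 43.7 in B16-RII and 43.0 in B16-RIIL. This is a range of 1.15-fold, and the signal-to-noise ratio was above 100 on each array. The second probe, listed for the same gene, gave another profile, with detection in B16 only (signal-to-noise ratio 5.86, level 0.163) and values at least 3.99-, 5.39- and 2.76-fold lower in B16-RI, B16-RII and B16-RIIL. Counted by any probe, Pebp1 would therefore pass the limit in all 3 lines, though on the deposited scale this probe was at least 1.92-fold lower in B16-RIIL, a bound that does not reach the limit.

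Map2k4, the kinase (MKK4) that activates JNK and p38, gave levels of 0.762 in B16, 0.920 in B16-RI, 0.820 in B16-RII and 0.745 in B16-RIIL, a range of 1.23-fold. It did not pass the limit in any line. Of 18 measured genes of the JNK and p38 cascade 15 were detected on at least 1 array. Of the 14 detected in B16-RI or B16, 4 were at least 2-fold above B16 (Map3k4, Mapk10, Mapk8ip3 and Atf2) and 2 below (Map3k1 and Mapk11). Of 13 in B16-RII, 1 was above (Map3k5) and 3 below (Map3k1, Mapk11 and Jun), and of 14 in B16-RIIL, 2 were above (Map3k5 and Mapk8ip3) and 1 below (Map3k1). Over all genes 14.6%, 14.1% and 14.4% passed in these lines, and most of the cascade genes that passed were undetected on 1 of the arrays compared.
Map3k1, an upstream kinase of Map2k4, was detected in B16 alone at a signal-to-noise ratio of 4.64 and was at least 4.65-, 2.03- and 5.62-fold lower in the 3 passaged lines. Map3k5 (ASK1), another upstream kinase, was undetected in B16 and B16-RI and at least 2.68- and 4.03-fold above B16 in B16-RII and B16-RIIL, with signal-to-noise ratios of 7.98 and 11.02. Jun, a target of JNK, was 2.03-fold lower in B16-RII, just past the limit. On the deposited scale neither passed in B16-RII, where the log2 difference of Jun was -0.60 and that of the undetected Map3k1 was bounded at -0.59.

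Kiss1, which encodes the secreted kisspeptins and was isolated as a suppressor of melanoma spread, was not detected. Its signal-to-noise ratio was 0.92 in B16, -4.02 in B16-RI, 0.52 in B16-RII and 0.32 in B16-RIIL, so no difference can be given. Its receptor Kiss1r was undetected on all 4 arrays as well. Neither ligand nor receptor therefore gave a signal above background by these probes.

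Over the genes of the set that were detected on both arrays, the median log2 difference from B16 was 0.11 in B16-RI (8 genes), -0.08 in B16-RII (8 genes) and -0.18 in B16-RIIL (9 genes), beside 0.03, 0.01 and -0.01 over all genes. The sign of this median was not settled in B16-RI, where it was -0.07 with quantile normalization. Nor was it settled in B16-RII, where it was 0.35 with the deposited signal and 0.27 with median scaling. Those 2 values stand beside 0.44 and 0.42 over all genes. Relative to the median of all genes, the median of the set in B16-RII ran from -0.20 to -0.09 over the 6 scalings. In B16-RIIL 8 of the 9 were below B16 and Brms1 alone was above it, at 0.05, and 7 or 8 were below it under the other scalings. The range between the percentiles 5 and 95 of all genes held 8 of 8, 7 of 8 and 8 of 9 of them, and the gene outside it was Cd9 both times. Between the passaged lines, Cd82 alone passed 2-fold, in the lung line against both lymph node lines, and no gene of the set passed between B16-RII and B16-RI, where 10.8% of all genes did (5.29% above and 5.55% below B16-RI).

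The wider tetraspanin family was measured by 29 genes, of which 23 were detected on at least 1 array. In B16-RI the genes at least 2-fold above B16 were Tspan5 and Tspan33, and those below it were Cd82, Tspan15 and Tspan18 (5 of the 20 genes detected). In B16-RII Rom1 was above and Cd82 and Tspan18 below (3 of 21). In B16-RIIL Tspan33 and Prph2 were above and Cd9 and Tspan18 below (4 of 21). Over all genes detected 14.6%, 14.1% and 14.4% passed in these lines on the same scale. Under the 6 scalings examined the tetraspanin count stayed at 5 in B16-RI, ran from 3 to 7 in B16-RII and from 4 to 8 in B16-RIIL. Tspan33 was undetected in B16 and exceeded it at least 13.9-fold in B16-RI, where its signal-to-noise ratio was 16.1. Tspan15, which like Tspan33 belongs to the group of tetraspanins that escort the protease Adam10, was detected in all lines and 3.47-fold lower in B16-RI. Tspan18, Rom1 and Prph2 had their highest signal-to-noise ratios at 4.40, 4.82 and 3.20.
Cd81, the close relative of Cd9 with which it shares partners, gave log2 differences from B16 of 0.51, 0.63 and 0.81 in B16-RI, B16-RII and B16-RIIL, the opposite sign to Cd9 in each. It did not pass 2-fold on this scale, but under 4 of the 6 scalings it passed in B16-RIIL and under 2 of them in B16-RII, with 1.33 and 1.05 on the deposited scale. The family as a whole had a median log2 difference of -0.09 in B16-RI (16 genes detected on both arrays), -0.18 in B16-RII (16) and -0.39 in B16-RIIL (17). In the lung line 15 of the 17 were below B16, beside 50.8% of all genes. Under the other scalings 11 to 14 of the 17 were below it, beside 28.8% to 48.5% of all genes. Tspan12, Tspan17 and Tspan13 came next to Cd9 there among the genes detected on both arrays, at -0.91, -0.91 and -0.85.

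**Figure D3:**
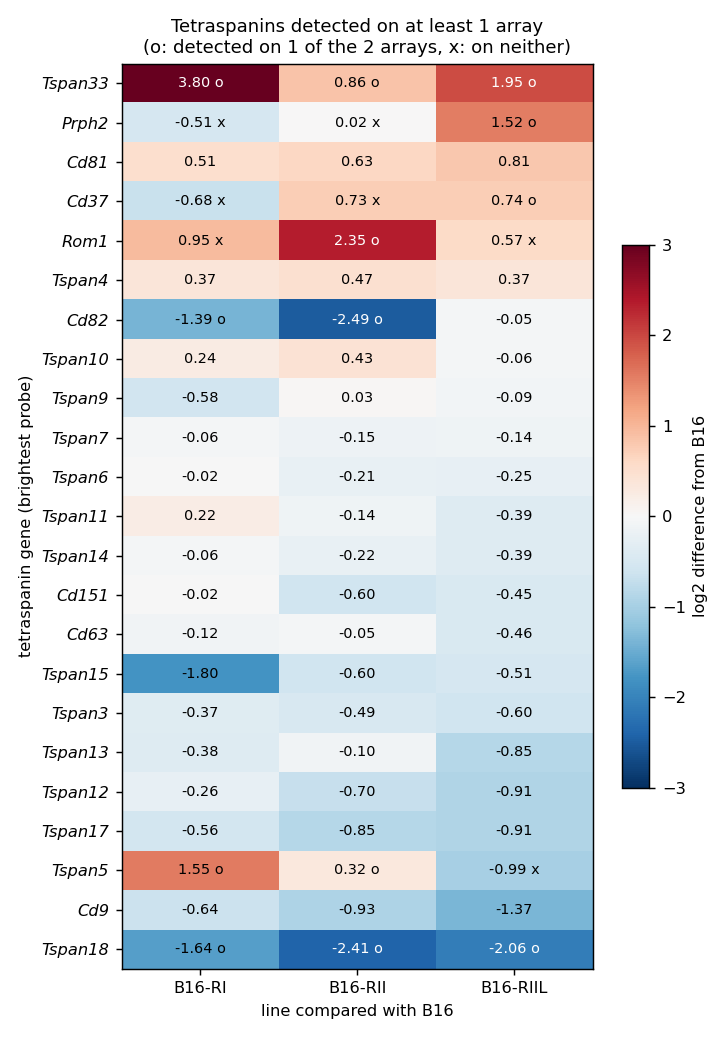
Log2 difference from B16 (colour and number) of the 23 tetraspanin genes detected on at least 1 array (rows, ordered by their value in B16-RIIL with the highest at the top) in the 3 passaged lines (columns); colours are cut at 3. An o marks a gene detected on 1 of the arrays compared, whose value is uncertain, and an x a gene detected on neither. Most genes detected on both arrays were below B16 in B16-RIIL, with Cd9 at -1.37 the lowest of them and Cd81 at 0.81 the highest.

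Among 19 measured partners of tetraspanins (integrins, Ig-family proteins, proteases and receptors) Itga4, an integrin subunit that binds VCAM-1 and fibronectin, stood out. Its level was 0.654 in B16, 0.104 in B16-RI, 0.126 in B16-RII and 0.229 in B16-RIIL. It was detected in every line and 6.31-, 5.19- and 2.85-fold lower than B16 in the passaged ones, although on the deposited scale the log2 difference in B16-RIIL was -0.99, just short of the limit. Epcam, which complexes with Cd9 in epithelial tumours, was at least 3.91-fold lower in B16-RI and at least 5.63-fold lower in B16-RII, from a signal-to-noise ratio of 3.31 in B16. Itgb3, the integrin beta-3 subunit, exceeded B16 by at least 4.05-fold in B16-RI alone, and Met, the receptor of hepatocyte growth factor, was 1.94-fold above it in B16-RII, which passed on the deposited scale (1.38), and 2.42-fold above it in B16-RIIL. Some direct partners of Cd9 and Cd151 that were detected on every array did not pass the limit: Itgb1 (0.06, 0.12 and 0.33), Itga6 (0.05, -0.44 and -0.48), Igsf8 (-0.26, -0.32 and -0.28) and Ptgfrn (-0.05, -0.69 and -0.30), as log2 differences from B16 in the same order of lines.

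Of 20 further metastasis suppressors on the array, 10 were detected on no array. Akap12, a scaffold of protein kinases A and C, was undetected in B16 (signal-to-noise ratio 1.69) and at least 3.71-, 4.63- and 3.69-fold above it in B16-RI, B16-RII and B16-RIIL. Cdh1 (E-cadherin) was at least 3.81- and 3.66-fold lower in B16-RI and B16-RII and had a log2 difference of -0.11 in B16-RIIL. The others that were detected, among them Timp2, Gsn and Cadm1, did not pass. Gsn was 1.99-fold lower in B16-RI, just short of the limit, with a log2 difference of -0.59 on the deposited scale. The counts were thus 2, 2 and 1 of 10 detected genes, beside 14.6%, 14.1% and 14.4% of all genes.

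The values of Cd9 and the medians depended on how the arrays were scaled. The authors' normalized signal carries an offset between arrays: over the probes detected on all 4, its median log2 difference from B16 was 0.21, 0.41 and 0.22 in B16-RI, B16-RII and B16-RIIL, and it differed between both probe sets, at 0.46 for the set of Cd9 and -0.01 for the other in B16-RIIL. On that scale Cd9 was at -0.24, -0.51 and -0.85 and no longer passed 2-fold, and it passed in 4 of 6 scalings examined. The measured value of Cd9 was below that of B16 in each line under all 6. For Cd82, which was undetected in B16-RI and B16-RII, the lower bound of its distance from B16 lay between -1.53 and -1.38 on the log2 scale in B16-RI and between -2.58 and -2.06 in B16-RII, and its measured log2 difference in B16-RIIL lay between -0.28 and -0.03. The sign of the small differences of Nme1 and Nme2 in B16-RI and B16-RII, of Pebp1 in all 3 lines, and of Map2k4 and Cd63 in B16-RII turned between scalings, so their direction is not settled. The median of the tetraspanin family stayed below that of all genes in each line and scaling, by -0.38 to -0.55 in B16-RIIL.

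**Figure D4:**
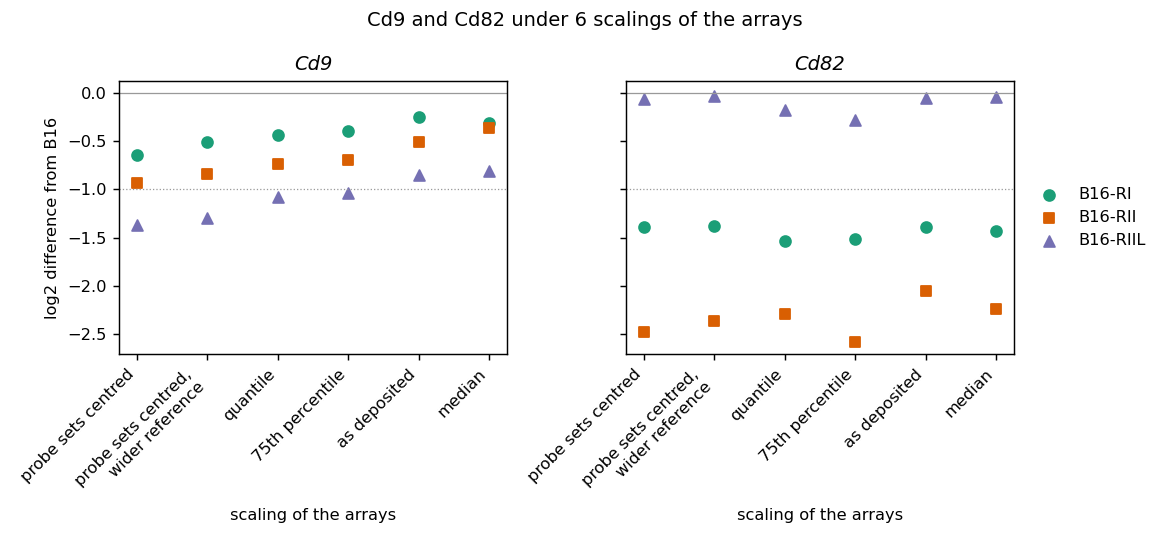
Log2 difference from B16 (vertical axis) of Cd9 (left) and Cd82 (right) under 6 scalings of the arrays (horizontal axis), with 1 point per passaged line and a dotted line at a 2-fold lower value. Cd9 was below B16 under each scaling, between -1.37 and -0.80 in B16-RIIL, and Cd82 stayed more than 2-fold lower in both lymph node lines, where it was undetected, and near 0 in B16-RIIL.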

How the data were processed

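Total RNA of 4 cultured lines was labelled with digoxigenin and hybridised to arrays, of which 1 per line was used here. The authors deposited the raw and the normalized intensity of 33012 probes, and a signal-to-noise ratio and a flag per probe, which are scores of the analyzer. Division of 1 deposited intensity by the other gave 2 constants per array, for 16524 and 16488 probes, so the normalized values were not quantile normalized although the methods of the study name this. The raw intensity was therefore taken as log2 and centred for each probe set on its median over the 11604 probes detected on all arrays. Of the columns 16 were used, and 20 columns of second arrays that match no sample label, 20 ratio columns and 4 log2 columns were not. A gene was represented by its brightest probe, and 16185 of 17302 probes with a symbol were matched to RefSeq. The number of arrays limits the precision. The members and lists were chosen with earlier results of these data known, and 3 genes were taken off the list of further suppressors after the data were seen because of their role. Of a list, the genes that passed the limit were named, and Cd81, Tspan12, Tspan13, Tspan17, Itgb1, Itga6, Igsf8, Ptgfrn, Timp2, Gsn and Cadm1 were named after their values were seen. Results that need some genes of the lists are not reported here. No test was run, as 1 array was used in each group. The calculation was tested on simulated data. Alternatives were 5 other scalings, other detection filters, limits of 1.5- and 4-fold and other probe rules. Python 3.11.15, numpy 2.4.6, pandas 2.3.3 and matplotlib 3.10.9 were used.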

Additional observations from a re-analysis of the deposited data

How the results depend on the processing

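No paired analysis was possible because the labels describe 1 array per line, the columns of second arrays match no sample label and were not used, and no number pairs arrays across lines, and for the same reason no replicate was left out. For 36 results 243 values were recomputed under 12 alternatives, and 202 of them counted as the same. For log2 differences of single genes this meant only the same side of the 2-fold limit, which 133 of 135 values kept. For counts it meant a change of at most 1.5 times, which held for 69 of 108. Of the 135 values for log2 differences of single genes 20 turned sign, in 9 of the 27 differences, none of which passed the limit. Only the difference of Cd9 in B16-RIIL changed its side of the limit, as it was -0.85 with the deposited normalized signal and -0.80 with median scaling, so that 0 genes of the set passed there under both. The counts below are given beside 1, 1 and 1 genes of the set in B16-RI, B16-RII and B16-RIIL, 5, 3 and 4 of the tetraspanin family and 2, 2 and 1 of the further suppressors. The tetraspanin count in B16-RII was 5 with the deposited signal and 7 with median scaling, and that in B16-RIIL was 8 with quantile normalization and 8 with 75th percentile scaling. With a signal-to-noise ratio of at least 5, the tetraspanin count was 1 in B16-RII and 2 in B16-RIIL, and that of the suppressors was 1 in B16-RI and 1 in B16-RII. With detection on both arrays, 0 genes of the set passed in B16-RI and 0 in B16-RII, the tetraspanin counts were 1, 0 and 1 and those of the suppressors 0, 0 and 0, by construction of a filter that removes every gene lost from detection. Without a detection filter the tetraspanin count in B16-RII was 5 and the suppressor counts were 4 in B16-RII and 3 in B16-RIIL. At 1.5-fold, 2 and 3 genes of the set passed in B16-RI and B16-RII, 10 and 10 tetraspanins in B16-RII and B16-RIIL, and 4 and 2 suppressors in B16-RI and B16-RIIL. At 4-fold, 0 genes of the set passed in B16-RI and 0 in B16-RIIL, 1 tetraspanin in B16-RI and 1 in B16-RIIL, and 1, 1 and 0 suppressors in the 3 lines. By any probe of a gene, 2 genes of the set passed in each line, and by the mean over detected probes 2 in B16-RI and 2 in B16-RII, the added gene being Pebp1 in each case. Signal over background limits Cd82, Cd151 and most of the list genes that passed, and with 1 array per line a difference between lines cannot be separated from one between arrays.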
